A study of Mus musculus with 4 samples.

Results

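Small nucleolar RNA (snoRNA) host genes are long noncoding genes whose introns carry snoRNAs, and 8 of them, Gas5, Snhg1, Snhg3, Snhg4, Snhg5, Snhg6, Snhg8 and Snhg12, were followed here. They were found by gene symbol in a table of 55573 genes, and each symbol matched a single row. The table held ribosome-protected signal from mouse primary myoblasts, precursors of muscle fibres that were grown with fibroblast growth factor and collected on day 2 of proliferation. There were 4 libraries, 2 of them wild-type (WT) and 2 labelled as an eIF5A knockout (KO). The study's text gives the mice as 3 weeks old. It gives the KO as tamoxifen-induced Pax7 CreERT2/+;eIF5A f/f, in which Cre acts only in cells that express Pax7 and their progeny, and the WT littermates in one place as Pax7 CreERT2/+ and in another as floxed mice without Cre. The cells of all 4 libraries were treated with cycloheximide, which holds ribosomes on RNA. The sample titles name polysome sequencing, whereas the extraction text describes RNase I digestion and recovery of ribosome-protected fragments, so the values are called ribosome-protected signal. The labels do not say whether libraries of the same genotype came from separate mice or cultures, and p-values therefore measure only the spread between these libraries.

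A host transcript is spliced, its introns are trimmed to snoRNAs, and the joined exons leave the nucleus. The snoRNAs are the product with a known task. Box C/D snoRNAs guide methylation of ribose and box H/ACA snoRNAs guide the making of pseudouridine, mostly in ribosomal RNA. The exons hold no conserved protein. Many host transcripts begin with a run of pyrimidines, the 5′ terminal oligopyrimidine (TOP) tract shared with ribosomal protein mRNAs, and Gas5 is the textbook case of a noncoding transcript that loads ribosomes on a short reading frame and is then removed by nonsense-mediated decay (NMD). Signal on these genes in a ribosome library is therefore signal on RNA that is not known to make a protein. The longest reading frames from ATG to stop in the annotated spliced transcripts were 81 codons in Gas5, 66 in Snhg5, 57 in Snhg12, 56 in Snhg6, 43 in Snhg3, 41 in Snhg1 and 35 in each of Snhg4 and Snhg8.

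The starts of the host genes are shown because the TOP tract is the feature that places these transcripts beside ribosomal protein mRNAs in translational control. Each line runs from 20 bases before the RefSeq start site to 20 bases from it (build GRCm38.p6), 5′ to 3′ on the transcribed strand, and capitals mark the longest tract, a C followed by C or T to a length of at least 5. Entries were found for 6 of the 8 host genes, not for Snhg4 and Snhg6, and Gas5 had a further site, at chr1:161034581-161034620, that held no tract.
Gas5, chr1:161035146-161035185, plus strand: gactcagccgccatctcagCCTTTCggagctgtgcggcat
Snhg12, chr4:132308658-132308697, plus strand: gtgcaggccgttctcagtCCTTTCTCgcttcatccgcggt
Snhg8, chr3:123508317-123508356, minus strand: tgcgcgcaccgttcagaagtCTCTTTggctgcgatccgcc
Snhg3, chr4:132353667-132353706, minus strand: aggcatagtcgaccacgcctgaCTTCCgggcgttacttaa
Snhg5, chr9:88522878-88522917, minus strand: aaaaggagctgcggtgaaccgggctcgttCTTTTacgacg
Snhg1, chr19:8723467-8723506, plus strand: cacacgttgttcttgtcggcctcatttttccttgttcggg

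A tract by this rule stood in 5 of the 6 host genes, with Snhg1 as the exception, whose window holds a pyrimidine run that opens with T. The rule is loose, since 45.9% of 32851 windows of the same length over all genes held such a run, read on the transcribed strand only. By gene, counting any of its windows, the share was 49.9% of 27025 genes, 81.4% of 59 ribosomal protein genes and 31.6% of 19 protein-coding snoRNA hosts. The tract covered the start site in Gas5, Snhg8 and Snhg12, where it opened at offsets of -1, 0 and -2 bases. In Snhg3 it opened 2 bases after the start site and in Snhg5 9 bases after it.

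The 8 host genes together took few of the reads. Whole reads could be recovered from the deposited values, and the 4 libraries held between 642429 and 704006 of them. The host genes took 103 reads in WT library 1 (0.0159% of its reads, 95% Wilson interval 0.0131 to 0.0193) and 98 in WT library 2 (0.0153%, 0.0125 to 0.0186). They took 132 reads in KO library 1 (0.0187%, 0.0158 to 0.0222) and 172 in KO library 2 (0.0265%, 0.0228 to 0.0307). KO library 2 lay above both WT libraries beyond counting error, while the interval of KO library 1 overlapped theirs. This order holds for shares of the recovered reads only. Under the library sizes of the authors, which set the RPKM values, the 8 genes summed to 64.6 and 87.8 RPKM in WT and to 49.1 and 80.5 RPKM in KO, so the genotypes overlapped. Such intervals hold counting error alone, because PCR copies of a molecule are not independent. Gas5 alone took 60.2% and 49.0% of the host reads in the WT libraries and 55.3% and 43.0% in the KO libraries.

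Gas5 (ENSMUSG00000053332, chr1:161034422-161038539, plus strand), a transcript that builds up when cells stop growing, had the highest mean level per length in both genotypes, and in KO library 2 lay below Snhg1. Its values were 27.4 and 27.1 RPKM (reads per kilobase of exon and per unit of library size) in WT libraries 1 and 2, and 21.4 and 24.4 RPKM in KO libraries 1 and 2, from 62, 48, 73 and 74 reads. The means were 27.2 ± 0.18 RPKM in WT (SD, n = 2) and 22.9 ± 2.09 RPKM in KO (SD, n = 2), with both KO values under both WT values. The log2 fold change of RPKM + 1, KO against WT, was -0.24 with an SE of 0.39, a 95% interval from -1.20 to 0.71 and an adjusted p of 0.847 (limma), and its sign turned under other scalings of the libraries, at 0.79 with equal sums of RPKM and 0.35 with equal read totals. A change of Gas5 was not detectable, and its level ranked 26 among the 357 tested long noncoding genes and stood at the 88.2 percentile of all 11363 tested genes. A gene was tested where its mean was at least 1 RPKM.

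Snhg5 (ENSMUSG00000097195, chr9:88521050-88522929, minus strand), host of the 2 Snord50 genes, was the host gene with the clearest gap between the genotypes. It stood at 12.5 and 13.5 RPKM in the WT libraries and at 3.19 and 2.86 RPKM in the KO libraries, from 13, 11, 5 and 4 reads. Replicates lay close together and the groups did not overlap. With 2 libraries per genotype and 4 to 13 reads in each, this closeness is a poor measure of the error. Every fit below drew on these same reads. The WT mean of 13.0 ± 0.729 RPKM (SD, n = 2) was 4.29 times the KO mean of 3.02 ± 0.229 RPKM (SD, n = 2). On the log2 scale the change was -1.80 (SE 0.35, 95% interval -2.67 to -0.92). Its p by limma was 0.00245 before adjustment and 0.471 after adjustment over all tested genes. With limma-voom, a fit on the recovered reads, the change was -1.997 with a wider SE of 0.80. The p by limma-voom was 0.0214 before adjustment and 0.410 after it. Snhg5 thus did not pass the threshold of 0.05. Its log2 fold change was below 0 in all 15 fits made, from -2.07 to -0.89, and its unadjusted p was under 0.05 in 14 of them.

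Snhg1 (ENSMUSG00000108414, chr19:8723475-8726443, plus strand), host of Snord22 and its neighbours, lay in the opposite direction. Its values were 3.91 and 11.4 RPKM in WT libraries 1 and 2 and 14.9 and 27.1 RPKM in KO libraries 1 and 2, from 7, 16, 40 and 65 reads. Both KO values were above both WT values, but the libraries of each genotype lay farther apart than WT library 2 and KO library 1 did. The KO mean of 20.98 ± 8.66 RPKM (SD, n = 2) was 2.73 times the WT mean of 7.67 ± 5.32 RPKM (SD, n = 2). On the log2 scale the change was 1.43 (SE 0.59, 95% interval -0.01 to 2.88), and its p by limma was 0.0511 before adjustment and 0.672 after it. The change came to 0.76 when WT library 1 was left out and to 2.10 when WT library 2 was, and remained above 0 in all 15 fits. Equal sums of RPKM moved it to 2.43 and equal read totals to 1.998. The unadjusted p was under 0.05 in 7 of the 15 fits.

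**Figure D1:**
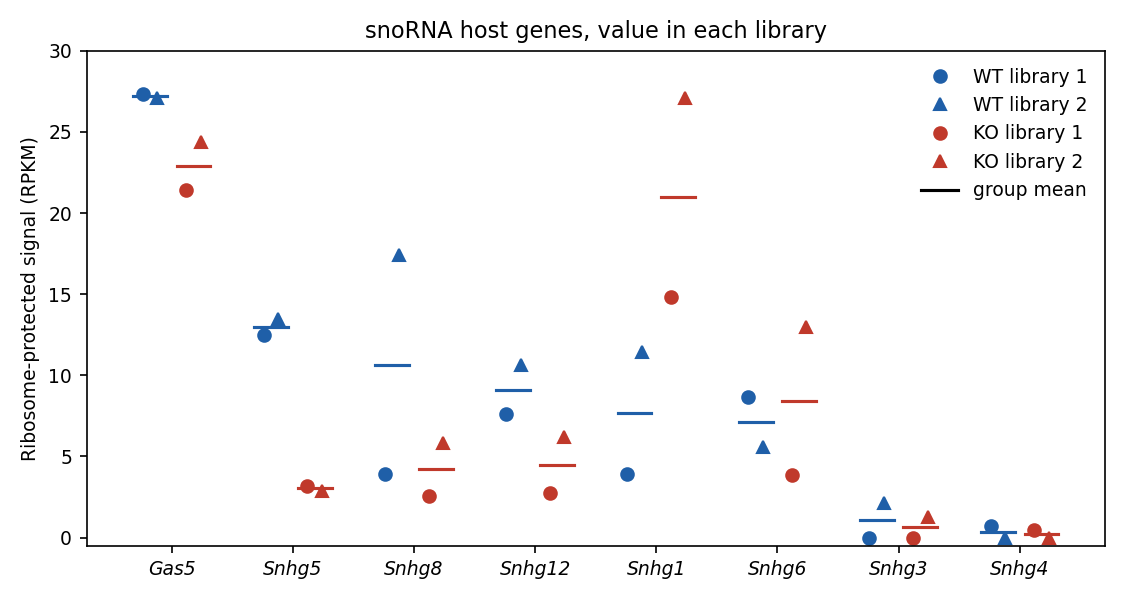
Ribosome-protected signal of the 8 host genes in RPKM (vertical axis) for each library, with circles for libraries numbered 1, triangles for libraries numbered 2, blue for WT and red for KO, and bars at the group means. Snhg5 lay at 12.5 and 13.5 RPKM in WT against 3.19 and 2.86 in KO, Snhg1 was higher in both KO libraries than in either WT library, and Gas5 stood above the other host genes in both WT libraries.

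Snhg12 (ENSMUSG00000086290, chr4:132308623-132311024, plus strand), host of Snora16a, Snora44, Snora61 and Snord99, had lower values in KO without overlap. They were 7.60 and 10.6 RPKM in WT against 2.75 and 6.19 RPKM in KO, from 11, 12, 6 and 12 reads. The WT mean of 9.10 ± 2.13 RPKM (SD, n = 2) was 2.04 times the KO mean of 4.47 ± 2.43 RPKM (SD, n = 2), and the log2 fold change of -0.94 (SE 0.46, 95% interval -2.08 to 0.19) had an adjusted p of 0.676 by limma. It moved to -0.48 when KO library 1 was left out and to -1.41 when KO library 2 was. Other scalings of the libraries brought it to -0.42 with equal read totals and -0.032 with equal sums of RPKM. KO library 2 carried as many Snhg12 reads as WT library 2, so the gap in RPKM between these libraries came from the library sizes by which the authors divided.

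Snhg8 (ENSMUSG00000104960, chr3:123507552-123508404, minus strand), host of Snora24, rested on 15 reads in all. Its values were 3.89 and 17.4 RPKM in WT and 2.59 and 5.81 RPKM in KO, from 2, 7, 2 and 4 reads, and the genotypes overlapped. The log2 fold change was -0.94 (SE 0.71, 95% interval -2.70 to 0.81, adjusted p 0.712 by limma). The 2 reads in WT library 1 and in KO library 1 lie under a floor of 3 reads per library. The change was 0.015 without WT library 2 and -1.90 when WT library 1 was left out, and it was -0.42 with equal read totals and -0.0048 with equal sums of RPKM.

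Snhg6 (ENSMUSG00000098234, chr1:9941959-9944118, minus strand), host of Snord87, showed no gap between the genotypes. It had 8.68 and 5.56 RPKM in WT and 3.85 and 13.0 RPKM in KO, from 6, 3, 4 and 12 reads. The KO values bracketed the WT values. The log2 fold change of 0.05 (SE 0.59, adjusted p 0.985 by limma) had an interval from -1.41 to 1.503, and its sign changed with the scaling and with the libraries used, so no direction is given.

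Snhg3 and Snhg4 were below the level at which a gene was tested. Snhg3 (ENSMUSG00000085241, chr4:132348014-132353686, minus strand), host of Snora73a and Snora73b, had 1 read in WT library 2, 1 in KO library 2 and 0 in the others. Snhg4 (ENSMUSG00000117869, chromosome 18, 35553371 to 35558316, plus strand), host of Snora74a, had 2 reads in each of the libraries numbered 1 and 0 in those numbered 2. All these counts were under a floor of 3 reads per library, so no fold is given and a difference was not detectable at this depth. Of the exon bases of Snhg3, 86.3% are shared with Rcc1, Gm17300 or Snora73a when strand is ignored, and 29.8% with another gene on the same strand. The strand rule of the counting is not given in the sources used here, and whether it affected Snhg3 was not tested.

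Across the host genes, 0 of the 6 tested passed an adjusted p of 0.05 by limma, where 0.106% of all tested genes did. At an unadjusted p under 0.05, 1 was lower in KO, Snhg5, beside 4.46% of all tested genes. With limma-voom on the recovered reads, which tests genes with at least 20 reads, 0 of 5 host genes passed the adjusted threshold (0.425% of 9179 genes did) and 2 had an unadjusted p under 0.05, Snhg1 and Snhg5 (10.1% of genes did). The adjusted p values of these 2 genes there were 0.344 and 0.410. Under the authors' library sizes, the KO values lay wholly below the WT values in 3 of the 6 tested host genes (Gas5, Snhg5 and Snhg12) and in 20.3% of all tested genes. They lay wholly above in 1 (Snhg1) and in 20.1% of all tested genes. Among the tested long noncoding genes these shares were 18.5% and 6.44%. By share of the recovered reads, Gas5 lay wholly above in KO instead and Snhg12 overlapped, while Snhg5 and Snhg1 kept their places. The median log2 fold change was -0.59 over the 6 tested host genes (0.39 with equal sums of RPKM and -0.035 with equal read totals), with 4 below 0 and 2 above under the authors' scaling, against 0.0003 over all tested genes and -0.40 over the tested long noncoding genes. The median tested gene had 54 reads in all, and only Gas5 and Snhg1 among the host genes had more, with 257 and 128.

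**Figure D2:**
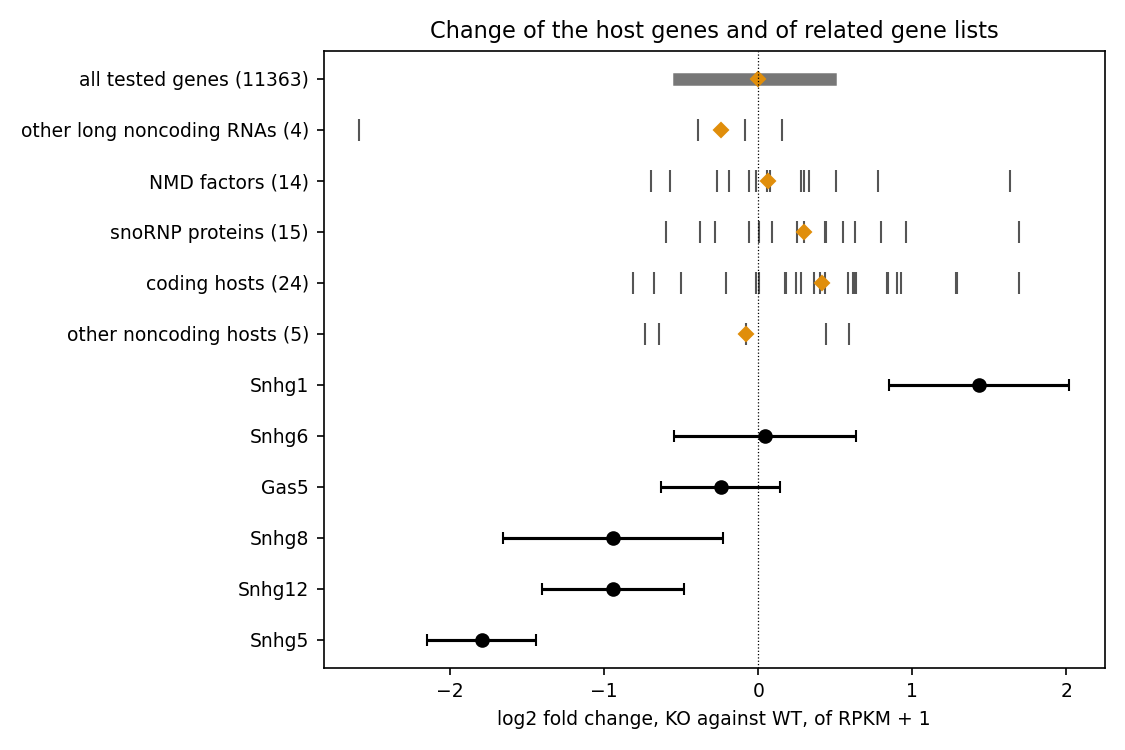
Log2 fold change of RPKM + 1, KO against WT (horizontal axis), for the 6 tested host genes (black points with bars of 1 SE), for the tested genes of 5 related lists (grey ticks, with the number of genes in parentheses and an orange diamond at the median) and for all 11363 tested genes (grey band from the 25th to the 75th percentile). Among the 6 host genes, Snhg5 at -1.80 and Snhg1 at 1.43 lie farthest apart, and Gas5 and Snhg6 lie within the band.

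Snhg1 and Snhg5 can also be set against each other within a library, which removes library size. The ratio of Snhg1 RPKM to Snhg5 RPKM was 0.314 in WT library 1 and 0.847 in WT library 2. It was 4.66 in KO library 1 and 9.47 in KO library 2. The ratio was higher in both KO libraries than in either WT library. Which of the pair is higher in WT library 2 depends on the gene lengths, since Snhg1 had 16 reads there and Snhg5 had 11. This pair was chosen after the values were seen, so the ratio is a description without a test. It rests on 4 to 13 reads of Snhg5 per library.

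**Figure D3:**
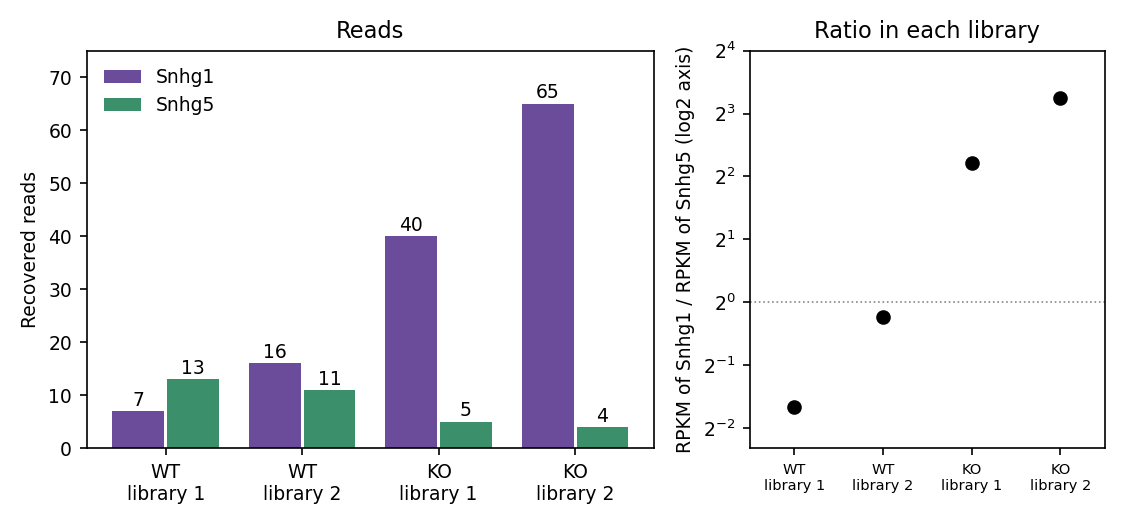
Recovered reads of Snhg1 (purple) and Snhg5 (green) in each library (left, bars from 0), and the ratio of their RPKM values on a log2 axis (right). The ratio is 0.314 and 0.847 in the WT libraries and 4.66 and 9.47 in the KO libraries, and its position against the dotted line at 1 depends on the gene lengths in the table.

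The order of levels followed from these values. In WT, Gas5 lay above Snhg5 without overlap, then came Snhg8, Snhg12, Snhg1 and Snhg6, of which no neighbours differed beyond the range of their libraries, and Snhg3 and Snhg4 were lowest. In KO, Gas5 and Snhg1 led and overlapped each other, Snhg1 lay above Snhg6 without overlap, and Snhg6, Snhg12, Snhg8 and Snhg5 followed with overlapping neighbours. The gene length enters these levels. The length in the table is the union of all annotated exons, and 20 of the 25 Gas5 transcripts and 14 of the 18 Snhg1 transcripts are annotated as retaining an intron, so their lengths of 3760 and 2969 bases include introns. Divided by the longest annotated transcript without a retained intron (665 bases for Gas5 and 709 for Snhg1) and assuming that the reads fell on exons, the WT level of Gas5 became 153.9 RPKM and that of Snhg1 32.1 RPKM. The others became 22.4 for Snhg5, 17.2 for Snhg8, 14.2 for Snhg12 and 10.0 RPKM for Snhg6. On that scale Snhg1 had the second highest WT mean in place of the fifth. The ratio of the genotype means does not depend on this length.

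The snoRNAs inside the hosts have rows of their own. The table held 31 snoRNA genes within the 8 hosts on the same strand, 10 in Gas5, 8 in Snhg1, 5 in Snhg12, 2 each in Snhg3, Snhg4 and Snhg5, and 1 each in Snhg6 and Snhg8. Snord80 and Snora16a are each annotated as a pair of overlapping genes. Only 1 of the 31, Snord87 in Snhg6, had any read, and the other 30 were at 0 in all 4 libraries. Of the 31, 28 lie wholly inside annotated exons of their host, and 0 of these 28 had a read. Snord87 lies in an intron that no annotated Snhg6 transcript retains. Snora73b, also outside its host's exons, had 0 reads, and Snora73a is covered for 77.6% of its length. The counting rule for reads that fall on 2 genes at once is not given in the sources used here, and its part in these zeros was not tested. The same overlap takes 20.9% of the Snhg1 exon bases, 19.6% of those of Snhg12, 17.8% of those of Gas5, 15.2% of those of Snhg8 and 8.32% of those of Snhg5.

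**Figure D4:**
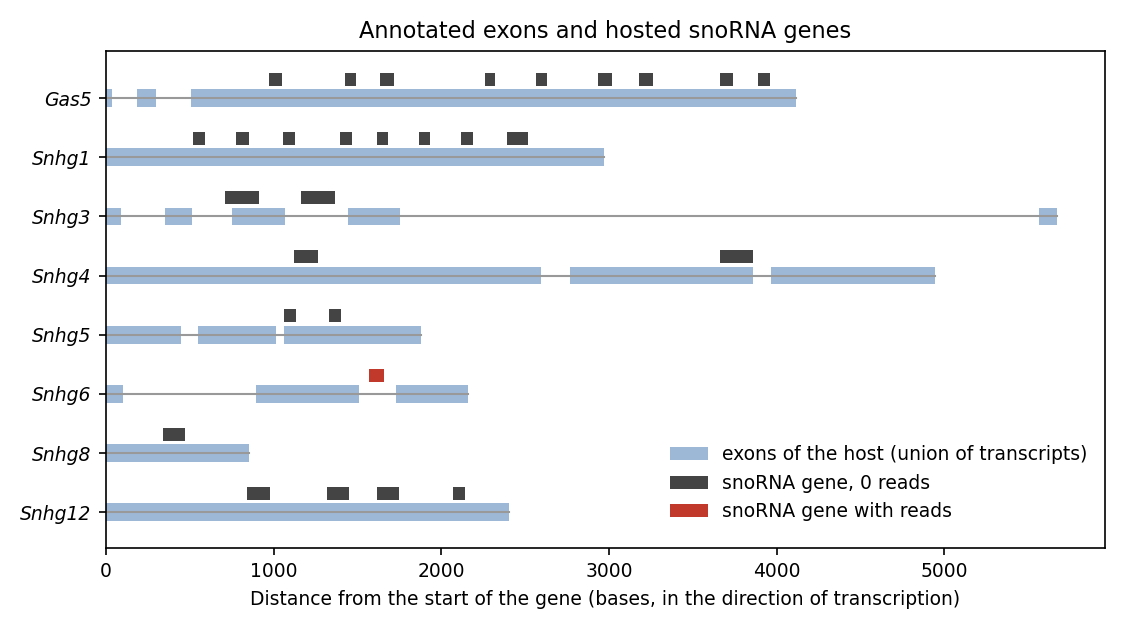
Exons of the 8 host genes (blue, the union of annotated transcripts) and the snoRNA genes inside them (dark where no library had a read, red where reads were counted), by distance in bases from the start of each gene in the direction of transcription. Of the 31 snoRNA genes, 28 lie wholly within blue exons, and Snord87, in an intron of Snhg6, was the 1 with reads.

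Snord87 and, for comparison, box C/D snoRNAs of Snhg5 and Gas5 that had no read follow (GRCm38, transcripts of GENCODE M21). Capitals mark a C box (TGATGA) and a D box (CTGA), the pair of elements that bind the proteins of a box C/D particle.
Snord87, chr1:9942463-9942549, minus strand: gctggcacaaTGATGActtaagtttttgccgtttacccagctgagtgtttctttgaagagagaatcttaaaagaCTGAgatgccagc
Snord50a, chr9:88521529-88521600, minus strand: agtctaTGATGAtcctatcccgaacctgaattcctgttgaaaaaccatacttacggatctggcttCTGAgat
Snord50b, chr9:88521797-88521868, minus strand: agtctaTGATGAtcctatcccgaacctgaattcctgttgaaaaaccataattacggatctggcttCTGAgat
Snord47, chr1:161038082-161038158, plus strand: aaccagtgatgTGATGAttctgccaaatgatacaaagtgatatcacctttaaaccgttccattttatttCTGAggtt

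All 4 snoRNAs hold both boxes near their ends. Snord50a and Snord50b differ at 1 of 72 bases, and a read that does not cover that base cannot be assigned to either copy. Snord87 had 1011, 1537, 519.6 and 2163 RPKM in WT libraries 1 and 2 and KO libraries 1 and 2, from 53, 63, 41 and 152 reads. KO library 1 was lowest and KO library 2 highest, so the genotypes overlapped, and the log2 fold change was -0.23 (SE 0.86, adjusted p 0.941 by limma). For each read on Snhg6 there were 8.83, 21, 10.2 and 12.7 reads on Snord87 in the same order of libraries. A snoRNA is not translated, and its reads are no measure of translation. By reads, Snord87 ranked 13 among the 140 snoRNA genes with any read.

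The other genes of this biology were counted by list, and their counts below and above 0 hold for the authors' scaling, since equal sums of RPKM would shift the median of all tested genes to 0.84. Of 13 further hosts described as noncoding, 11 were in the table, with Snhg11 annotated there as protein-coding, and 5 were tested. Of these, 0 passed the adjusted threshold by limma, 3 lay below 0 and 2 above, with a median log2 fold change of -0.08. None of the 5 had separate groups, where 20.3% of all tested genes had KO values wholly below WT and 20.1% wholly above. Snhg15 had 18.3 and 7.81 RPKM in WT against 14.6 and 19.1 in KO, and Zfas1 had 11.3 and 16.8 against 4.64 and 13.0. Epb41l4aos had 7.72 and 64.2 RPKM against 17.9 and 25.9, so its WT libraries differed widely. Snhg9 was listed with 0 and 23.2 against 6.02 and 6.77 RPKM, which rest on 0, 2, 1 and 1 reads, all under a floor of 3 reads per library. None of these 4 separated the genotypes.

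Protein-coding genes that carry snoRNAs in their introns were read more, with 12296 reads on the list over the 4 libraries against 505 on the 8 noncoding hosts. Of 24 tested, 0 passed the adjusted threshold by limma, 19 lay above 0 and 5 below, with a median log2 fold change of 0.42, and 9 had KO values wholly above WT and 2 wholly below (20.1% and 20.3% of all tested genes did). Rack1, a protein of the small ribosomal subunit and host of several snoRNAs, had 96.9 and 191.6 RPKM in WT against 132.5 and 233.2 in KO. Rpl7a, a protein of the large subunit, had 153.7 and 126.3 RPKM against 85.4 and 112.6. Cct6a, a chaperonin subunit, had 38.9 and 124.3 RPKM against 109.0 and 162.8. Ribosomal protein genes, which share the TOP tract, had a median of -0.08 over 76 tested, with 42 below 0 and 34 above.

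Factors that act on the host RNA or on the snoRNA particle did not pass the test either. Of 14 NMD factors, 0 passed by limma, 8 lay above 0 and 6 below, with a median log2 fold change of 0.07. Upf1, the helicase of this decay pathway, had 33.0 and 21.6 RPKM in WT against 37.0 and 31.1 in KO. The exon junction proteins Magoh and Eif4a3 had 53.9 and 35.8 against 70.2 and 41.8 RPKM, and 15.6 and 38.01 against 35.9 and 34.4 RPKM. Rbm8a, the partner of Magoh, had 6.19 and 13.2 RPKM in WT against 15.1 and 17.7 in KO, without overlap (log2 fold change 0.78, SE 0.47, adjusted p 0.697 by limma). KO values lay wholly above WT in 2 of these factors, beside 20.1% of all tested genes. The other, Upf3b, named after its values were seen, rested on 2 and 0 WT reads against 12 and 10 KO reads (log2 fold change 1.63, SE 0.60, adjusted p 0.672 by limma). Of 15 proteins of snoRNA particles and their assembly, 0 passed, 11 lay above 0 and 4 below, with a median of 0.30. Nop56, a core protein of box C/D particles, had 17.0 and 22.8 RPKM against 21.2 and 18.4, and Ruvbl2, which helps to assemble them, had 11.4 and 19.02 against 17.9 and 23.0. The box H/ACA proteins Nhp2 and Nop10 had 30.4 and 74.1 against 20.2 and 47.5 RPKM, and 10.5 and 26.8 against 17.9 and 24.6 RPKM. In this list 4 genes had KO values wholly above WT, beside 20.1% of all tested genes. Dkc1, the pseudouridine synthase of box H/ACA particles and itself a snoRNA host, was named after its values were seen. It had 1.21 and 3.09 RPKM in WT against 7.22 and 10.5 in KO (log2 fold change 1.70, SE 0.46, adjusted p 0.629 by limma).

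A comparison list of 14 other well-known long noncoding RNAs, of which Rian also carries snoRNAs and was not tested, had 13 genes in the table and 4 tested, of which 0 passed the adjusted threshold by limma. Malat1, a nuclear RNA, had 398.8 RPKM in WT library 1 and 67.8 in WT library 2, and 363.0 and 66.3 in the KO libraries, so library 1 was 5.88 and 5.47 times library 2. Neat1, the RNA of nuclear paraspeckles, had 10.7 and 3.78 RPKM in WT and 17.9 and 2.68 in KO, with ratios of 2.83 and 6.67. The same ratios were 1.01 and 0.878 for Gas5, 0.924 and 1.11 for Snhg5, 0.342 and 0.548 for Snhg1 and 0.716 and 0.445 for Snhg12. The 2 nuclear RNAs were thus higher in the libraries numbered 1, whereas these 4 host genes were near equal or higher in the libraries numbered 2, apart from Snhg5 in KO at 1.11 and Gas5 in WT at 1.01. Snhg6 differed from these 4 in WT, with 8.68 RPKM in library 1 and 5.56 in library 2. Higher values in the libraries numbered 1 were not particular to nuclear RNAs. The sum of the fibroblast markers given below was 444.1 against 249.6 RPKM in WT and 750.4 against 326.9 in KO. The sum of the myoblast markers was higher in library 1 in WT only. H19, an imprinted noncoding RNA of growing muscle precursors, had 253.5 and 19.8 RPKM in WT against 8.07 and 15.1 in KO. Tug1 had 4.77 and 2.83 against 2.49 and 2.67 RPKM. Library 1 was 12.8 times library 2 in WT and 0.534 times in KO for H19, and 1.68 and 0.933 times for Tug1. Neither H19 (adjusted p 0.676) nor Tug1 (adjusted p 0.760) passed the test by limma.

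Among the genes whose pattern over the 4 libraries lay nearest to the mean pattern of the 6 tested host genes were Fam129b, Fbxw8, Rnf187 and Klf2, all protein-coding. Likeness was the Euclidean distance between centred log2(RPKM + 1) values over 4 libraries, among 3574 genes with at least 100 reads, and the distances of these 4 ran from 0.0963 to 0.127. The mean pattern itself was -0.06 and 0.47 in WT and -0.56 and 0.15 in KO, so the libraries numbered 2 were above those numbered 1 in both genotypes. Fam129b had 64.6 and 88.6 RPKM in WT and 45.1 and 69.4 in KO. With 4 libraries, many genes can share a pattern.

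The targeted gene and the cell type markers are given beside these results. Eif5a itself had 34.9 and 65.2 RPKM in WT and 60.3 and 59.4 RPKM in KO, so it was not lower in the libraries labelled KO (log2 fold change 0.32, SE 0.48, adjusted p 0.839 by limma). The signal counts the whole gene and does not show whether the floxed part was lost. The 6 myoblast markers summed to 225.3 and 183.2 RPKM in WT and to 68.0 and 109.9 in KO, with all 6 below 0 (median log2 fold change -1.43) and 5 wholly below WT (20.3% of all tested genes were), Myod1 at 139.9 and 117.5 against 48.6 and 79.8 RPKM among them. The 6 fibroblast markers summed to 444.1 and 249.6 against 750.4 and 326.9 RPKM, with 5 above 0 and a median of 0.54, and the 5 endothelial markers to 105.5 and 99.8 against 138.5 and 112.0 RPKM, with all 5 above 0 and a median of 0.57. The 5 immune markers summed to 27.9 and 36.5 against 20.6 and 21.7 RPKM, with Itgam at 0 in all 4 libraries. Only 2 of them, Cd68 and Lyz2, were tested, and both lay below 0. Csf1r went the other way, at 0.287 and 0 RPKM against 1.15 and 1.29, from 1, 0, 6 and 6 reads. In bulk ribosome libraries, fewer cells of a type, less RNA per cell and fewer ribosomes per RNA cannot be told apart. The paper reports similar Myod mRNA in WT and KO cells and proposes that eIF5A controls translation of MyoD. For the host genes too, RNA amount and ribosome loading cannot be told apart, since no matched RNA values were used here. The part of these cell type markers in the values of Snhg5, Snhg1 and Snhg12 was not tested.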

How the data were processed

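The deposited values are RPKM, computed by the authors for each of 4 libraries after mapping with TopHat2 to mm10 (Ensembl release 97 in the study's methods) and counting with HTSeq; their versions, the strand setting and the rule for overlapping genes are not given in the sources used here. Whole reads were recovered from the deposited RPKM, gene length and step size for 100% of values (tolerance 0.01). The library sizes the authors divided by were 602863 and 471136 (WT) and 906990 and 807705 (KO), against 648386, 642429, 704006 and 650210 recovered reads. Genotypes and library numbers came from the sample titles.

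Genes averaging 1 RPKM or more were tested with limma 3.58.1 (R 4.3.3; lmFit, eBayes with trend) on log2(RPKM + 1), a scale that understates changes of low genes, with Benjamini-Hochberg adjustment over 11363 genes. An exact two-sided permutation test of 2 against 2 cannot go below p = 0.333. Alternatives were limma-voom on recovered reads, other pseudocounts, filters and scalings, a replicate block and leaving out each library. The code was tested on simulated data. Exons came from GENCODE M21 (99.8% of identifiers found, of which 99.7% had the same coordinates).

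The host genes, the gene lists and the cell type markers were chosen with earlier results of these data known. The text names all 8 host genes, at most the 4 genes of each list with the highest mean RPKM, hosted snoRNA genes with reads, Eif5a and the 5 genes nearest in pattern, of which some are not reported here. Dkc1, Upf3b and Gm23201 were named after their values were seen, Itgam as a marker at 0, and Rian and Snhg11 to describe their lists. Rpl and Rps genes were taken by symbol. Marker lists were, for myoblasts, Myod1, Myf5, Pax7, Des, Cdh15 and Chrna1, for fibroblasts, Col1a1, Col1a2, Col3a1, Pdgfra, Dcn and Lum, for endothelium, Pecam1, Cdh5, Tek, Kdr and Emcn, and for immune cells, Ptprc, Cd68, Csf1r, Lyz2 and Itgam.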

Additional observations from a re-analysis of the deposited data

How the results depend on the processing

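No host gene passed the adjusted threshold in the main fit or in any of 14 alternatives, where the smallest adjusted p of a host gene was 0.289. The number of genes called over the whole table went from 12 to 0 with a pseudocount of 0.1, no filter, a minimum of 5 RPKM, trend off, the replicate block, equal read totals or any library left out, to 8 with equal sums of RPKM and to 39 with limma-voom. The median log2 fold change of the host genes moved to 0.39 under equal sums of RPKM, a scaling that moved the median of all tested genes to 0.84. Relative to that shift Gas5 was at -0.05, Snhg1 at 1.596, Snhg5 at -1.72, Snhg12 at -0.87, Snhg8 at -0.84 and Snhg6 at 0.10. Equal read totals, added after seeing the data, moved the median of all tested genes to 0.50. With 1 library left out, where the lone library is assumed to vary like the other genotype, the median of the host genes ran from -1.06 to -0.24.

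Gas5 turned to 0.79 with equal sums of RPKM and to 0.35 with equal read totals. Snhg6 turned to -0.083 with equal sums over protein-coding genes, -0.15 with limma-voom, -0.24 without WT library 2 and -0.72 without KO library 2, within a range from -0.72 to 0.81 over the fits that left out 1 library. Snhg8 turned to 0.015 without WT library 2, within a range from -1.90 to 0.015. The cause was not tested. With the replicate block the median stayed at -0.59 and no host gene was called. The unadjusted p of Snhg1 by limma was 0.0160 with the block, against 0.0511 without it, and its adjusted p was 0.625. The sample titles give same-numbered libraries only a number in common. Their deviations correlated at 0.0575 over all tested genes, which cannot show whether they were paired. Malat1 and Neat1 were higher in library 1 in both genotypes. The depth limits all host genes but Gas5. Snhg1 had only 7 and 16 reads in the WT libraries, and the others rest on 2 to 41 reads over 4 libraries.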

Other observations

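Outside the 8 host genes, snoRNA rows with and without reads also differed by overlap. Of 1476 snoRNA genes there, those that lie wholly within annotated exons of another gene had reads in 1 of 129 (0.775%), the gene Gm23201 with 8 reads, which was named after its values were seen. Those with no base in another gene's exons had reads in 130 of 1291 (10.1%). Among the genes named Snord, Snora or Scarna, the counts were 0 of 43 and 50 of 70 (71.4%), and 3 of 12 where part of the gene was covered. The comparison was made after the zeros on the hosted snoRNAs were seen, and no test was run on it.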
